A study of Bos taurus with 3 samples.

Results

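The macrophage-like cells described here were 288 barcodes of a peripheral blood culture from which mesenchymal stromal cells were being grown. They were chosen by a rule on measured values: at least 1000 unique molecular identifiers (UMIs), at least 1% of them from 20 macrophage markers, and under 0.2% from the collagen genes COL1A1 and COL1A2. They made up 8.16% of the 3530 blood barcodes of that size (exact 95% interval 7.28 to 9.11%, counting error only), of 20611 in the series. The same rule found 1213 of 10698 barcodes (11.3%) in the bone marrow culture and 4 of 6383 in the adipose culture. The other blood barcodes used here were 3100 stromal ones, with at least 0.2% collagen UMIs and under 1% marker UMIs.

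The 3 cultures came from 1 healthy wild-type Holstein-Friesian cow in its first lactation, were given no treatment, and grew in DMEM of low glucose to which penicillin-streptomycin, glutamine and 30% fetal bovine serum had been added. They were harvested when stromal colonies could be seen and read by droplet-based 3' single-cell RNA sequencing. Each tissue gave 1 library, so no comparison between cultures or groups of barcodes has a replicate or a test, and every interval covers counting error only. Tissue, culture, library preparation and sequencing cannot be told apart. Levels are UMIs summed over a group of barcodes and scaled to a common total (CPM); the assay reads 1 end of each transcript, so levels were not divided by gene length.

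Macrophages are phagocytes that develop from blood monocytes or from cells seeded in tissues before birth. They engulf particles and dying cells, digest them in lysosomes, present peptides on class II molecules, recycle iron from haem, and release cytokines and chemokines that draw in other leukocytes. Monocytes adhere to plastic, so macrophages can persist beside stromal cells in early primary cultures.

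The members held 1929462 UMIs in all. Their totals ran from 1156 to 29213 UMIs per barcode with a median of 6215, against 4007 in marrow macrophage-like barcodes and 25013 in blood stromal barcodes. They had a median of 2078.5 genes and 1.04% mitochondrial UMIs, against 2.66% mitochondrial UMIs in the marrow barcodes. An order-of-magnitude threshold for cells, 7489 UMIs in this library, would have kept 67 of the 288. The marker share, used by the rule, ran from 1.01% to 3.28% with a median of 1.43%. The 3 members nearest the limit had 1.01, 1.03 and 1.03% marker UMIs, and the 3 barcodes just outside it 0.995, 0.994 and 0.989%. Between 1.0 and 1.2% lay 39 members, and between 0.8 and 1.0% lay 19 barcodes outside. Those 19 had 146618 CPM of the ferritin heavy chain FTH1 and 7673 CPM of the protease MMP9, and 157 CPM in all of 20 stromal genes other than the rule's collagens.

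No barcode combined at least 1% marker UMIs with at least 0.2% collagen UMIs, and 103 members had 0 collagen UMIs. Among the stromal barcodes the median marker share was 0.00600%, but 48 had at least 0.2% and 8 at least 0.5%. No doublet caller was run. The 15 members whose UMI total exceeded 2 times the median carried 154 CPM of the 20 stromal genes, against 209 CPM in the other 273 members. Of the members' barcode sequences, 2 also occurred among the marrow barcodes of at least 1000 UMIs, 0 of them macrophage-like there, and 0 among the adipose ones. Free RNA, taken from blood barcodes of 10 to 100 UMIs, could make up at most 3.46% of the members' UMIs if all their stromal-list UMIs came from it.

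**Figure D1:**
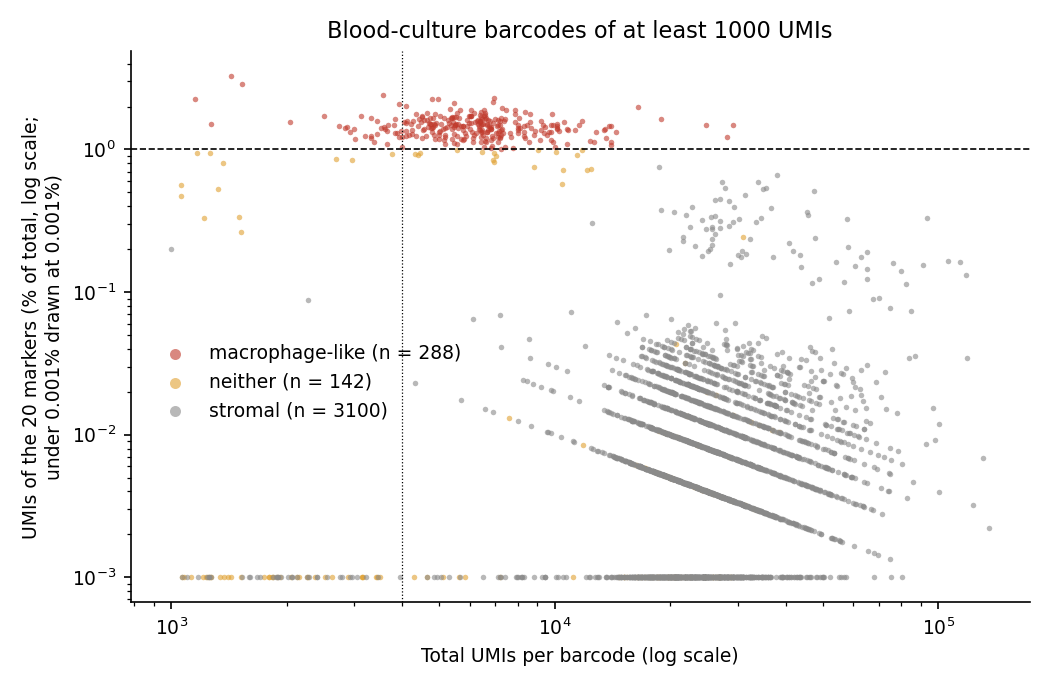
Each point is 1 blood-culture barcode of at least 1000 UMIs, by its UMI total (x axis, log scale) and the percent of its UMIs from the 20 markers (y axis, log scale). The 288 macrophage-like barcodes lie above the dashed 1% line, mostly at 4000 UMIs (dotted line) or more, and the 3100 stromal barcodes lie lower and further right.

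Of the 20 markers, 19 were detected in the members. MARCO, a scavenger receptor of alveolar and splenic macrophages, had 0 UMIs in the members, which allows up to 1.55 CPM (3 UMIs in all the members), and 3.24 CPM in the marrow barcodes. The most abundant was the lysosomal cysteine protease cathepsin S, with 3257 CPM of CTSS in the members, 3619 in marrow barcodes and 44.1 in blood stroma. The Fc receptor gamma chain FCER1G had 1355 CPM and the signalling adaptor TYROBP 1429 CPM in the members. The 3 chains of the complement recognition molecule C1q were uneven: C1QA had 1054 CPM, C1QC 242 and C1QB 44.1. In the marrow barcodes C1QA had 849.8, C1QC 249 and C1QB 298 CPM.

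The members also carried the 6 genes given as marks of these cells, of which 2, CYBB and RNASE6, were not in the rule. CYBB, the catalytic subunit of the phagocyte NADPH oxidase, had 790.4 CPM in the members, 600.3 in marrow barcodes and 4.9 in blood stroma. RNASE6, an antimicrobial ribonuclease, had 889.9, 814 and 6.95 CPM in the same order. The integrin alpha-M chain ITGAM had 284, 57.5 and 1.15 CPM, and the haemoglobin-haptoglobin scavenger receptor CD163 672, 311 and 3.98 CPM. PTPRC, the leukocyte common antigen CD45, had 215, 171 and 0.932 CPM.

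After thinning each barcode to 1000 UMIs, CYBB had a UMI in 58.7% of the members (52.8 to 64.4%), 42.0% of marrow barcodes and 0.258% of blood stromal barcodes. PTPRC had one in 15.3% of the members (11.3 to 19.96%), 15.8% of marrow barcodes and 0.161% of stroma, and in 71.5% of the members without thinning. The stroma should lack both genes, but its shares do not give the level of free RNA in a member. Stromal barcodes held a median of 25013 UMIs against 6215 in the members, so free RNA can be a larger part of a member. Of the stromal barcodes, 48 also had at least 0.2% marker UMIs. PTPRC was found in more members without thinning, so a barcode without a UMI of it at 1000 UMIs is not shown to lack it.

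**Figure D2:**
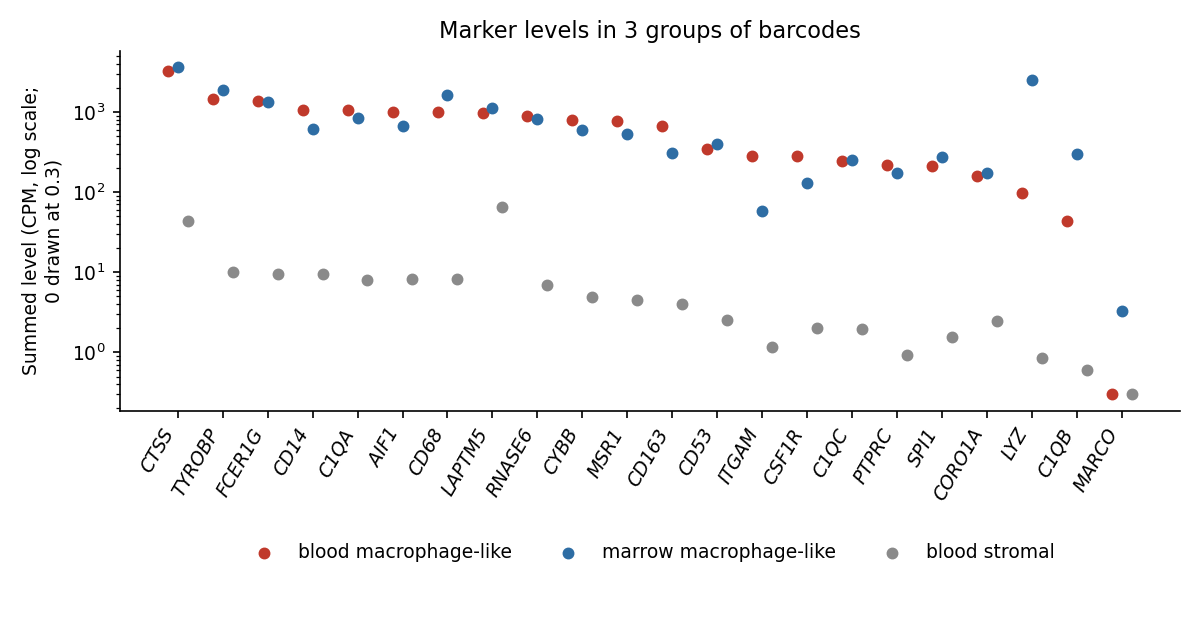
Summed levels (CPM, log scale) of the 20 markers and of CYBB and RNASE6 in blood macrophage-like, marrow macrophage-like and blood stromal barcodes. ITGAM stands higher in the blood members than in marrow (284 against 57.5 CPM), LYZ and C1QB stand lower (97.4 against 2513 and 44.1 against 298 CPM), and MARCO is at 0 in the members.

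Iron storage dominated the members' transcripts. FTH1, the heavy chain of ferritin, had 155251 CPM in the members, 180599 in marrow barcodes and 4070.4 in blood stroma, and the light chain FTL 28344, 28928 and 3355 CPM. Processed copies of ferritin genes can share reads with these. The next most abundant genes outside the cytoskeleton and housekeeping were the class I light chain B2M with 12857 CPM and the gelatinase MMP9 with 8026 CPM. The neutrophil-attracting chemokines CXCL5 and CXCL8 followed with 6933 and 3875 CPM, and osteopontin, SPP1, with 6723 CPM. The cystatin CSTB had 3635 CPM, the lysosomal protease legumain, LGMN, 2943 CPM, and the monocyte-attracting chemokine CCL2 2683 CPM.

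Against the blood stroma, 768 of 3649 genes of at least 50 CPM (21%) were at least 2-fold higher in the members and 1022 (28%) at least 2-fold lower, 49.1% in either direction. The rule chose both groups by genes of this contrast, so nothing is read from those counts. Of 34 macrophage genes outside the rule, 19 could be compared and 18 were at least 2-fold higher in the members. The 32 genes found summed to 6107 CPM in the members and 179 in stroma. The rule and the minimum of 50 CPM largely set this direction in advance, so nothing is read from that count either. The same limit holds for other lists compared with blood stroma. Among genes outside the rule of at least 100 CPM in the members, IGSF6, an immunoglobulin-family receptor of myeloid cells, had the largest ratio, with 138 CPM in the members and 0.598 in stroma. Scinderin, SCIN, a protein that severs actin filaments, had 449 and 2.22 CPM, and the membrane protein gene TM4SF18 151 and 0.828 CPM. The C-type lectin CLEC4A had 109 and 0.587 CPM, the anaphylatoxin receptor C5AR1 724 and 4.5 CPM, and the costimulatory ligand CD86 144 and 0.886 CPM. MERTK, a receptor for the uptake of dying cells, had 131 and 0.874 CPM, and SLC11A1, a phagosomal metal transporter, 1104 and 9.21 CPM.

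Markers of other blood cells were mostly absent from the members. Of 14 T cell genes 12 had 0 UMIs; the remaining signal was nearly all IL7R, the interleukin 7 receptor, at 135 CPM in the members and 463 in marrow barcodes. Of 11 B cell genes 8 had 0 UMIs and none reached 50 CPM. Of 11 natural killer genes 8 had 0 UMIs, while the granule protein gene NKG7 had 400.1 CPM and the chemokine CCL5 619 CPM. Of 14 neutrophil genes 10 had 0 UMIs, and S100A12 was the highest at 690.3 CPM. Of 12 dendritic cell genes 7 and of 12 endothelial genes 7 had 0 UMIs. Osteoclast genes were mostly detected: of 14, 3 had 0 UMIs and 6 had at least 50 CPM. Of 6 compared with blood stroma 4 were at least 2-fold higher in the members. Only MMP9, which many phagocytes express, exceeded 1000 CPM. The 20 stromal genes summed to 202 CPM in the members, against 9141 CPM in blood stroma and 5822 CPM in free RNA.

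The blood members were then set against the marrow macrophage-like barcodes, which the same rule chose in another library of the same cow. Of 2901 genes of at least 50 CPM in either group, 236 (8.14%) were at least 2-fold higher in blood and 119 (4.1%) at least 2-fold lower, 12.2% in all. A gene that reached 50 CPM in blood but not in marrow could be called only as higher in blood, and the reverse. Counts within the lists below share this limit. The median log2 ratio of all 2901 genes was 0.27, so a gene at the middle of the list was already slightly higher in blood. With scaling by trimmed means (TMM), which put that median at −0.05, 131 genes were higher and 185 lower. Blood stromal barcodes set against marrow stromal barcodes gave 126 higher (4.03%) and 109 lower (3.49%) of 3127 genes, 7.52% in all. Of the 236 genes higher in the blood members, 103 could be compared in stroma, with 14 higher and 6 lower there. Of the 119 lower genes, 58 could be compared, with 20 lower and 4 higher there.

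Inflammatory cytokines were higher in the blood members. Of the list's 28 genes 14 could be compared. Of these 11 were at least 2-fold higher and 0 lower, with a median log2 ratio of 1.68. Genes such as TNF and IL1A were under 50 CPM in marrow and entered through blood alone, so the count leans to blood. With no minimum, the 27 genes found summed to 18268 CPM in blood and 9318 in marrow. In the stroma of the same cultures 7 of the list's genes could be compared, of which 5 were higher in blood and 1 lower, with a median of 1.53; whether the difference is larger in macrophage-like barcodes was not tested. TNF, tumour necrosis factor, had 112 CPM in blood and 3.24 in marrow, 34.5-fold (21.3 to 59.4) apart. The chemokine CCL4 had 731 and 67.4 CPM, 10.9-fold (9.68 to 12.2), and interleukin 1 alpha, IL1A, 320.3 and 30.3 CPM, 10.6-fold (8.91 to 12.6). IL1B was 3.23-fold (2.85 to 3.66) higher, CCL3 3.2-fold (2.95 to 3.47), and oncostatin M, OSM, 4.93-fold (4.01 to 6.07). CXCL8 had 3875 CPM in blood and 1556 in marrow, 2.49-fold (2.41 to 2.57). Over all barcodes CXCL5, CXCL2 and the chemokine CCL5 were less than 2-fold apart, at 1.46-fold (1.43 to 1.49), 1.86-fold (1.75 to 1.97) and 1.37-fold (1.28 to 1.46), the last of these lower in blood. Within a class of depth the ratios differed: CXCL5 was 2.3-fold higher in blood among barcodes of at least 4000 UMIs and 2.2-fold among smaller ones, CXCL2 2.74-fold and 1.88-fold higher, and CCL5 1.31-fold and 3.0-fold lower. CXC chemokine genes are alike in sequence, so the split of reads between CXCL5, CXCL2 and GRO1 is uncertain.

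Some feedback inhibitors and immediate early genes were among the genes of large ratio. They were named for that ratio and form no list of their own; of 15 transcription factors compared 4 were higher and 1 lower, and of 8 stress genes 1 was higher and 1 lower. TNFAIP3, a brake on NF-kappaB signalling, had 203 CPM in blood and 21.6 in marrow, 9.37-fold (7.62 to 11.6). NFKBIZ was 7.83-fold (6.58 to 9.36) higher and NFKBIA 2.69-fold (2.56 to 2.83). The transcription factor EGR1 had 269 and 18.7 CPM, 14.4-fold (11.6 to 17.9), FOS 429 and 73.3 CPM, 5.85-fold (5.19 to 6.61), and the immediate early gene IER2 133 and 17.5 CPM, 7.62-fold (6.01 to 9.73). The stress-induced GADD45B was 17.0-fold (12.7 to 23.1) higher, the phosphatase DUSP2 8.11-fold (6.91 to 9.54), and DDIT4, an inhibitor of mTOR signalling, 9.09-fold (8.1 to 10.2). IL10, the anti-inflammatory interleukin 10, had 64.8 CPM in blood and 10.3 in marrow, 6.31-fold (4.58 to 8.79), and the growth factor HBEGF 91.7 and 15.7 CPM, 5.85-fold (4.5 to 7.66).

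Among genes of at least 100 CPM in the blood members, the largest ratio over marrow was that of F13A1, the A subunit of coagulation factor XIII. It had 487 CPM in blood and 4.68 in marrow, 104-fold (70.5 to 160.1) apart, and 2.82 CPM in blood stroma. Its log2 ratio was 6.70 over all barcodes, 9.31 among barcodes of at least 4000 UMIs and 4.90 among smaller ones. In barcodes thinned to 4000 UMIs, it had a UMI in 194 of 254 blood members (76.4%, 70.7 to 81.5%) and in 1 of 609 marrow barcodes (0.164%). RARRES1, a gene induced by retinoic acid, had 1012 and 81.6 CPM, 12.4-fold (11.2 to 13.8). The clearance receptor STAB1 was 12.3-fold (9.12 to 16.9) higher, the channel gene CALHM6 11.6-fold (9.16 to 14.9), and SERPINB2, an inhibitor of plasminogen activators, 10.6-fold (8.61 to 13.1). ALOX5AP, needed for leukotriene synthesis, had 55.5 and 1.08 CPM.

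**Figure D3:**
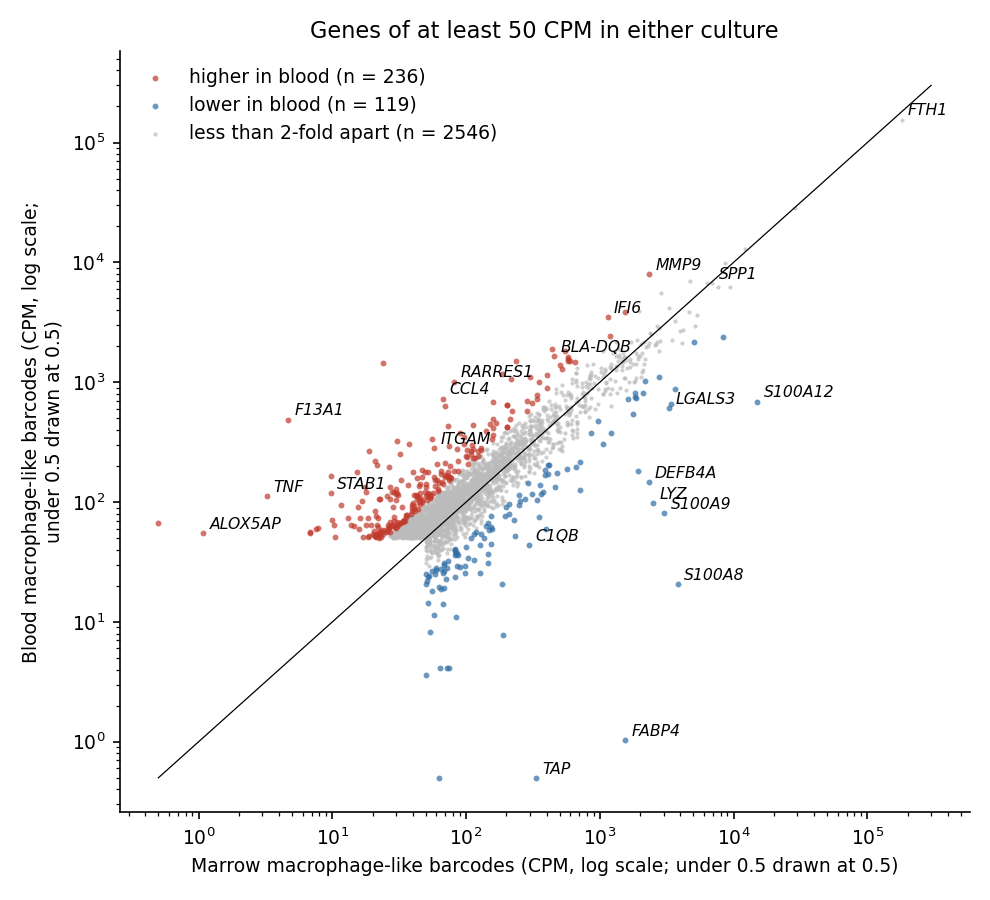
Each point is 1 gene of at least 50 CPM in blood (y axis) or marrow (x axis) macrophage-like barcodes, on log scales, with the line of equal level. F13A1 (487 against 4.68 CPM), TNF and CCL4 lie far above the line, and FABP4, TAP, S100A8 and LYZ far below it.

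Antigen presentation genes of class II were higher in the blood members. Of 22 listed genes 12 were found and 8 could be compared; 5 were at least 2-fold higher and 0 lower, with a median log2 ratio of 1.41. The DR alpha chain BOLA-DRA had 1516 CPM in blood and 595 in marrow, 2.55-fold (2.42 to 2.68). The DQ beta gene BLA-DQB had 1643 and 457 CPM, 3.6-fold (3.41 to 3.79), and the invariant chain CD74 1395 and 505 CPM, 2.76-fold (2.62 to 2.92). BOLA-DQB, another DQ beta gene, had 77.2 and 68.3 CPM, 1.13-fold (0.929 to 1.37). Reads may be divided between these like genes. The peptide-loading gene BOLA-DMA was 4.59-fold (3.5 to 6.05) higher and BOLA-DMB 4.0-fold (3.4 to 4.71). Of the class I genes, 1 of 9, the immunoproteasome subunit PSMB9, was at least 2-fold higher, at 164 and 72.6 CPM.

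Complement and scavenger genes were divided. Of 5 complement genes compared 3 were higher in blood: C2 3.58-fold (3.05 to 4.21), factor D, CFD, 4.32-fold (3.54 to 5.3), and C5AR1 2.14-fold (2.0 to 2.29). Of 11 scavenger and uptake receptors 3 were higher and 2 lower. The folate receptor FOLR2 had 1104 CPM in blood and 300.3 in marrow, 3.68-fold (3.45 to 3.92), and the lipid receptor TREM2 497 and 212 CPM, 2.35-fold (2.15 to 2.56). The fatty acid and lipoprotein receptor CD36 was 3.27-fold (3.07 to 3.49) lower and the mannose receptor MRC1 2.53-fold (2.07 to 3.1) lower. Among the rule's markers, ITGAM was 4.94-fold (4.3 to 5.69) higher, CD163 2.16-fold (2.01 to 2.32) and the growth factor receptor CSF1R 2.16-fold (1.93 to 2.41); C1QB was 6.76-fold (5.43 to 8.5) lower and the lysozyme gene LYZ 25.8-fold (22.3 to 29.9) lower, while 14 of 19 were less than 2-fold apart.

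Of 9 interferon-induced genes compared, 4 were higher in blood and 0 lower, with a median log2 ratio of 0.87. IFI6, the highest of them, had 3499 CPM in blood and 1147 in marrow, 3.05-fold (2.95 to 3.16). MX2 was 1.0-fold (0.879 to 1.14) apart and MX1 1.41-fold (1.25 to 1.59). Of 16 glycolysis genes 4 were higher and 0 lower, with a median of 0.74: the glucose transporter SLC2A3 3.66-fold (3.26 to 4.1), the regulator PFKFB3 3.44-fold (2.91 to 4.07), the lactate carrier SLC16A3 2.29-fold (1.95 to 2.69) and lactate dehydrogenase LDHA 2.05-fold (1.98 to 2.13). The haem-degrading enzyme HMOX1 had 1819.7 and 553 CPM, 3.29-fold (3.13 to 3.45), the protease MMP9 8026 and 2341 CPM, 3.43-fold (3.35 to 3.51), and thrombospondin 1, THBS1, 1876 and 439.8 CPM, 4.27-fold (4.05 to 4.49). THBS1 also had 587 CPM in blood stroma.

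Scaling and depth changed some of these calls. With TMM scaling the log2 ratio was under 1 for TREM2 (0.95), CD163 (0.83), CSF1R (0.83), C5AR1 (0.82), PSMB9 (0.89), SLC16A3 (0.92), LDHA (0.76), PCNA (0.94) and the matrix proteoglycan VCAN (0.76). Among barcodes of at least 4000 UMIs in both cultures, 279 genes were higher in blood and 134 lower, and of the called genes named here TOP2A (0.98) and VCAN (0.71) were under 2-fold. Among smaller barcodes, of which blood had 34, 550 were higher and 183 lower, and the log2 ratio was 0.37 for IFI6 against 1.61 over all, 0.16 for TREM2, 0.67 for HMOX1, 0.41 for PSMB9, 0.70 for CSF1R, 0.92 for LDHA, 0.53 for PCNA, 0.72 for ISG15 and 0.99 for BOLA-DMB. Other moves kept the call: CCL4 was at 2.26 among smaller barcodes and 4.03 among the rest, EGR1 at 2.75 and 4.70, HBEGF at 1.75 and 3.33, and S100A8 at −4.61 among the smaller ones.

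Among monocyte and alarmin genes the calgranulins were far lower in the blood members, but the list was divided. Of 12 genes compared 3 were at least 2-fold higher (THBS1, TREM1 and VCAN), 4 lower (S100A8, S100A9, S100A12 and the adhesion receptor CD44) and 5 not apart, with a median log2 ratio of 0.17. S100A12, a calcium-binding alarmin of neutrophils and monocytes, had 690.3 CPM in blood and 15060.1 in marrow, 21.8-fold (20.7 to 23.0) lower. S100A8 had 20.7 and 3836 CPM, 185-fold (136 to 259), and S100A9 80.3 and 3032 CPM, 37.7-fold (32.2 to 44.5). LYZ had 97.4 and 2513 CPM, where lysozyme gene copies of cattle may share reads. The beta-defensin DEFB4A had 147 and 2316 CPM, 15.7-fold (14.0 to 17.8). TAP, the tracheal antimicrobial peptide of cattle, had 0 UMIs in blood and 335 CPM in marrow; set against 3 UMIs, it was at least 216-fold lower in blood. In stroma S100A12 had 5.85 CPM in the blood culture and 322 in the marrow culture. It also made up 5532 CPM of the free RNA of the marrow library, and subtracting free RNA left it and S100A8 lower in blood.

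Lipid and lysosome genes leaned to the marrow side. FABP4, a fatty acid carrier of fat cells and macrophages, had 2 UMIs in the members (1.04 CPM) and 1548 CPM in marrow, 1493-fold (413 to 12334) lower. The related FABP5 had 874 and 3642 CPM, 4.17-fold (3.97 to 4.38). Of 10 lipid genes compared 5 were lower and 1 higher, with a median log2 ratio of −0.65; the lipid droplet protein PLIN2 was 1.4-fold (1.34 to 1.46) higher and apolipoprotein E, APOE, 1.11-fold (1.05 to 1.16) lower, neither 2-fold apart. Of 31 lysosome genes 8 were lower and 1 higher, with a median of −0.47. The acid lipase LIPA had 808 and 2098 CPM, 2.6-fold (2.46 to 2.74), cathepsin B, CTSB, 1112 and 2779 CPM, 2.5-fold (2.39 to 2.62), and progranulin, GRN, 741 and 1858 CPM, 2.51-fold (2.37 to 2.65). Of 15 proton pump subunits 1 was lower and 0 higher. The lectin LGALS3 was 5.43-fold (5.12 to 5.76) lower and the tetraspanin CD9 5.69-fold (5.0 to 6.51) lower. The intermediate filament gene VIM had 664 CPM in blood and 3418 in marrow, against 15008 in blood stroma. Its log2 ratio of blood over marrow was −2.36, and −3.83 with free RNA subtracted, so its level in the members is uncertain.

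The 34 small members, those under 4000 UMIs, were compared with the 254 larger ones. They held few UMIs, 4 of them under 2000 and 30 from 2000 to under 4000 UMIs. The marker share was 2.53% in the 4 smallest, 1.45% in the next 30, 1.47% in the 194 of 4000 to under 8000 UMIs, and 1.39% in the 60 of at least 8000. Mitochondrial UMIs made up 5.63% in the 4 smallest, and 1.02, 1.14 and 1.57% in the other 3 groups in the same order. Of 3191 genes of at least 50 CPM in either group, 212 (6.64%) were at least 2-fold higher in small members and 194 (6.08%) at least 2-fold lower, 12.7% in all. With TMM scaling the same counts were 121 and 301. Of the 194, 10 had 0 UMIs in small members, and for 5 of these the bound against 3 UMIs was under 2-fold.

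Small members carried more of some chemokine and alarmin transcripts, but most genes of both lists were not apart. Of 14 inflammatory cytokines compared 2 were at least 2-fold higher in small members, 1 lower and 11 not apart. Of 12 monocyte and alarmin genes 4 were higher, 0 lower and 8 not apart. The chemokine CCL5 was lower, with 292 CPM in small and 638 in large members. CXCL5 had 20890.0 CPM in small members and 6119 in large ones, 3.41-fold (3.26 to 3.57). In marrow macrophage-like barcodes it had 9504 CPM in small and 2656 in large ones. The epidermal growth factor family ligand AREG had 498 and 82.3 CPM in small and large blood members, 6.06-fold (4.34 to 8.34), and the metallothionein MT2A 1063 and 232 CPM, 4.58-fold (3.69 to 5.65). SERPINB2 was 3.08-fold (2.33 to 4.02) higher and IL1B 2.13-fold (1.6 to 2.8), IL1B standing at a log2 ratio of 0.91 with TMM scaling. S100A9 had 273 CPM in small and 69.1 in large members, 3.95-fold (2.54 to 5.95), but 1252 and 3812 CPM in small and large marrow barcodes. The alpha-globin gene HBA had 103 and 7.13 CPM, from 24 UMIs in 11 members of which 8 UMIs lay in 1.

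Cell cycle genes and some lipid genes were lower in the small members. Genes at a low level in small members could enter only by reaching 50 CPM in the large ones, so the counts below lean to lower. With no minimum, the 20 mitosis genes summed to 141 CPM in small and 652 in large members. The 20 replication genes summed to 310 and 873 CPM, and the 23 lipid genes found to 3800 and 5330 CPM. Of 5 mitosis genes compared 4 were at least 2-fold lower; HMMR, the remaining one, had 0 UMIs in small members and, set against 3 UMIs, was at least 1.83-fold lower. Of 7 genes of DNA replication 5 were at least 2-fold lower, but with equal weight per barcode the log2 ratio moved to −0.48 for MCM3, against -1.42 from summed UMIs, and to −0.68 for PCNA, against -1.35. STMN1, a microtubule regulator of dividing cells, had 1 UMI in small members (9.41 CPM) and 188 CPM in large ones, 19.9-fold (3.56 to 790.0), and TOP2A, a topoisomerase, and MKI67 had 0 UMIs in small members. Of 10 lipid genes 4 were lower: APOE with 348 and 1037 CPM, 2.98-fold (2.15 to 4.24), FABP5 with 310.4 and 907 CPM, 2.92-fold (2.07 to 4.26), TREM2 with 198 and 514 CPM, 2.6-fold (1.69 to 4.23), and the sterol hydroxylase CYP27A1, with 1 UMI in small members. The protease CTSK rested on 7 UMIs, 65.8 CPM in small and 319 in large members. IFI6 had 1721 and 3603 CPM, 2.09-fold (1.81 to 2.44), and a log2 ratio of −0.98 with equal weights. CYBB, BOLA-DRA and CD163 differed little, at 1.06-fold (0.848 to 1.32) higher, 1.09-fold (0.921 to 1.29) lower and 1.09-fold (0.849 to 1.42) lower in small members.

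In marrow macrophage-like barcodes split at the same size, 25 of 2502 genes (0.999%) were higher in small barcodes and 21 (0.839%) lower, 1.84% in all. The small blood members held 106319 UMIs and the small marrow barcodes 1692200. Counting error alone can therefore carry more genes past 2-fold in blood, and the shares of the 2 cultures are not comparable. Of the 212 genes higher in small blood members 57 could be compared in marrow, with 6 higher and 4 lower there. Of the 194 lower genes 127 could be compared, with 5 lower and 0 higher there.

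**Figure D4:**
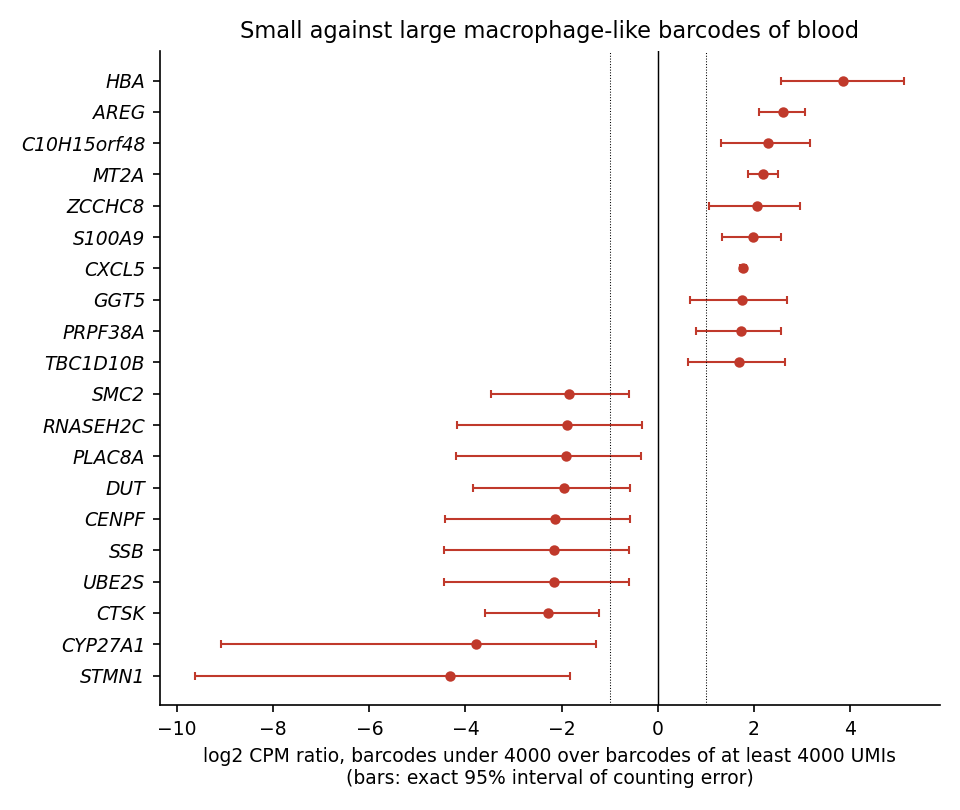
log2 CPM ratio of small (34) over large (254) macrophage-like blood barcodes for the 10 named genes of largest ratio in each direction, with exact 95% intervals of counting error. AREG, MT2A and CXCL5 have narrow intervals above 1 (6.06-fold (4.34 to 8.34), 4.58-fold (3.69 to 5.65) and 3.41-fold (3.26 to 3.57)), while STMN1 and CYP27A1 rest on 1 UMI each in small members and have wide ones. The intervals leave out spread between members. For AREG, MT2A and CXCL5 the variance over members, scaled to that of Poisson sampling at each barcode's depth, was 16.3, 16.1 and 70.0. AREG had a UMI in 21.2% of the members.

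The members varied among themselves most in SPP1, CXCL5, FTH1 and MMP9, by an index that grows with a gene's level. Of 1297 genes with UMIs in at least 5% of the members, 129 had counts whose variance, scaled to that of Poisson sampling at each barcode's depth, exceeded 2, and 34 exceeded 5; the median was 1.13. The highest were SPP1 at 85.4, CXCL5 at 70.0, FTH1 at 67.8 and MMP9 at 31.3. For equal depth, the 254 members of at least 4000 UMIs were thinned to 4000 UMIs each, as were 609 marrow barcodes. SPP1 then ran from 0 to 243 UMIs in the blood members with a median of 12, and from 0 to 454 with a median of 11 in marrow. The 26 blood members richest in SPP1 held 46.1% of its UMIs. CXCL5 ran from 0 to 152 UMIs with a median of 18.5 in blood, against 0 to 92 with a median of 4 in marrow. MMP9 ran from 0 to 167 with a median of 27 in blood, and from 0 to 60 with a median of 4 in marrow.

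FTH1 was the least uneven of the 4 in relative terms: in these 254 members it ran from 196 to 1065 UMIs per 4000 with a median of 651.5. Over all 288 members the iron and haem list, nearly all of it ferritin, ran from 1.64% to 29.5% of a barcode's UMIs. IFI6 ran from 0 to 42 with a median of 12 in blood, against 0 to 26 with a median of 3 in marrow. S100A12 ran from 0 to 20 with a median of 2 in blood, and from 0 to 225 with a median of 58 in marrow. The 2 groups of barcodes overlap for each of these genes, S100A12 the least of those named here: the 95th percentile was 11 UMIs in blood and the 5th percentile 13 in marrow.

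**Figure D5:**
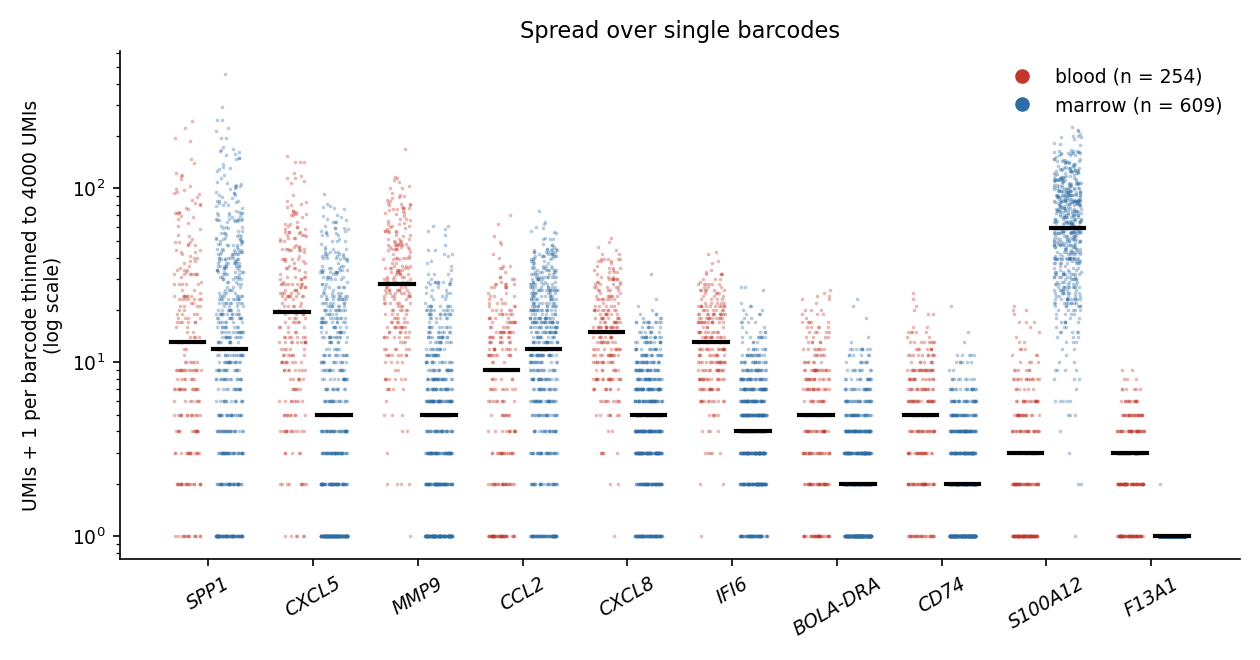
UMIs plus 1 (log scale) of 10 genes in single barcodes thinned to 4000 UMIs, for 254 blood (left of each pair) and 609 marrow (right) macrophage-like barcodes, with the median as a bar. SPP1, MMP9 and CXCL5 spread over the widest ranges of the 10 in blood, S100A12 lies lower in blood than in marrow (medians 2 and 58), and F13A1 is at 0 in all but 1 marrow barcode.

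Members rich in CXCL5 differed from those poor in it in several genes. Members with at least 38 UMIs of CXCL5 per 4000 (67 barcodes) were set beside those with 8 or fewer (69 barcodes); these are the ends of a continuous range, with 21 members within 5 UMIs of the upper limit and 87 within 5 of the lower. Mean CXCL8 was 23.5 UMIs in the CXCL5-rich and 9.09 in the CXCL5-poor members, MMP9 46.5 and 20.2, THBS1 12.8 and 3.70, and S100A12 4.48 and 1.46. SPP1 was 15.4 and 40.6 UMIs, TREM2 0.806 and 3.23, BOLA-DRA 4.24 and 7.75, and IFI6 10.1 and 17.6. Median UMI totals before thinning were 5399 and 7090. As descriptions over 254 barcodes of 1 library, Pearson's r was 0.57 for CXCL5 with CXCL8, 0.43 with MMP9 and 0.45 with THBS1; over 609 marrow barcodes it was 0.52, 0.43 and 0.43. For the chemokines GRO1 and CXCL2, r with CXCL5 was 0.14 and 0.27 in blood, and 0.38 and 0.47 in marrow. CXCL5 with IFI6 gave −0.35 in blood and 0.24 in marrow, CXCL5 with S100A12 0.36 and −0.35, and SPP1 with CXCL5 −0.28 and 0.28.

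Class II transcripts also varied among the members. In blood, r of BOLA-DRA was −0.26 with CXCL5, −0.31 with MMP9 and 0.23 with the log2 UMI total before thinning. In marrow these were 0.06, −0.04 and 0.13. Whether this spread is separate from that of CXCL5 or of depth was not tested. BOLA-DRA was at 0 in 33 of 254 members and at 10 or more UMIs in 52. Mean CD74 was 10.5 UMIs in those 52 and 1.24 in the 33, and r between BOLA-DRA and CD74 was 0.71 in blood and 0.58 in marrow.

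Some interferon-induced genes had many of their UMIs in a few members. The summed UMIs of ISG15, an ubiquitin-like protein induced by interferon, and of the antiviral GTPases MX1 and MX2 were 0 in 107 of 254 members and 69 in the highest. The 9 members with at least 10 held 43.3% of these UMIs. ISG15 had a UMI in 65 members (25.6%, 20.3 to 31.4%), and MX2 in 30 of those 65 and 39 of the other 189; r between MX1 and MX2 was 0.54 in blood and 0.12 in marrow. IFI6, by contrast, had a UMI in 65 of the 65 and 188 of the 189. The interferon list as a whole was at 0 in 1 of 288 members. ISG15 and MX2 had been named for their high variance, so their concentration is partly set by that choice.

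C1QB was detected in 15 of 254 blood members (5.91%, 3.34 to 9.55%) and in 357 of 609 marrow barcodes (58.6%, 54.6 to 62.6%) at 4000 UMIs. The 15 blood members averaged 10.2 UMIs of C1QA and 3.0 of C1QC, against 3.48 and 0.791 in the other 239. Their median depth before thinning was 6911 UMIs, against 6424.

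A part of the members carried cell cycle transcripts. At 4000 UMIs per barcode, 57 of 254 members (22.4%, 17.5 to 28.1%) had at least 5 UMIs of 40 replication and mitosis genes, against 100 of 609 marrow barcodes (16.4%, 13.6 to 19.6%) and 2514 of 3063 blood stromal barcodes (82.1%, 80.7 to 83.4%). At least 10 UMIs were found in 36 members (14.2%), 63 marrow barcodes (10.3%) and 2061 stromal barcodes (67.3%). The 57 carried CYBB in 57 and PTPRC in 40, and 178 CPM of the 20 stromal genes, against 212 CPM in the other 197 members. Between the cultures, replication genes PCNA and RRM2 were 2.33-fold (2.0 to 2.71) and 3.17-fold (2.54 to 3.95) higher in blood and the mitosis genes TOP2A and CENPF 2.55-fold (2.0 to 3.24) and 3.88-fold (3.16 to 4.75). Free RNA of the dividing stroma also carries these genes. With free RNA subtracted the log2 ratio of blood over marrow was 1.30 for PCNA, 1.88 for RRM2, 1.57 for TOP2A and 2.21 for CENPF. The part of free RNA in the low counts of single barcodes was not tested. Without the 57 blood and 100 marrow barcodes, which UMIs of these same genes had picked out, the log2 ratio was 0.89 for PCNA, 0.68 for RRM2, 0.55 for CENPF and −0.57 for TOP2A.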

How the data were processed

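The deposited files hold raw counts: UMIs per gene and barcode, for every barcode, which the authors made with Cell Ranger, whose version the submitters' processing notes give as 6.1.1 and the headers of the deposited files as 4. The build is ARS-UCD1.2 per the same notes; annotation and counting rule are not given in the sources used here. The libraries held 98016815 UMIs (blood), 106322567 (bone marrow) and 99356868 (adipose).

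Barcodes were classed by the rule above and UMIs summed per class (Python 3.11.15, numpy 2.4.6, scipy 1.17.1). A gene was called apart at a CPM ratio of at least 2 with at least 50 CPM in the higher group. Ratios have exact conditional, levels exact Poisson and shares Clopper-Pearson 95% intervals; ratios against 0 use 3 UMIs in the group. Thinning drew UMIs without replacement. TMM factors came from edgeR 4.0.16. On simulated counts the calls were tested before use. Members and 41 gene lists (681 of 736 entries found) were chosen with earlier results of these data known, so the lists support nothing independently. Genes named are the markers, the highest in the members, the largest ratios of each comparison, the most variable and list members 2-fold apart, of at least 100 CPM outside the lists; NKG7, BOLA-DQB, PLIN2, MX1, CXCL2 and other list members under 2-fold were chosen after their values were seen. Alternatives changed thresholds, scaling, weights, depth and free RNA. Genes with an Ensembl identifier alone (4579 of 21861) matched no RefSeq entry and have no symbol here. Sequences and coordinates were not used here. A result on 1 gene is not reported here.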

Additional observations from a re-analysis of the deposited data

Results flagged for a closer look

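In the adipose culture, which none of the comparisons used, 4 of 6383 barcodes of at least 1000 UMIs met the macrophage-like rule (0.0627%, 0.0171 to 0.160%). The count was flagged because it exceeded 3, and the origin of these barcodes was not tested. They had between 1973 and 3870 UMIs, all under the order-of-magnitude threshold of 4438 UMIs for that library, and 1 had over 5% mitochondrial UMIs. All 4 had UMIs of FTH1 (1106 in all), MMP9 (75), SPP1 (72) and S100A12 (83), and of the markers CD14, CD68, TYROBP and FCER1G. FABP4 had 0 UMIs in them and F13A1 had 3. Their barcode sequences recurred in 0 of the blood and 0 of the marrow macrophage-like barcodes.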

How the results depend on the processing

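The number of members was 67 at the library's cell threshold and 11 at a 2% marker share, and lay between 284 and 314 under the 5 other limits tried. The count of genes apart between blood and marrow members was 355; it was 142 at a ratio of 3, 227 at 100 CPM, 673 at 20 CPM, 733 among barcodes under 4000 UMIs and 1338 at a 2% marker share. Against blood stroma the count of 1790 became 1138 at a ratio of 3, 1131 at 100 CPM and 2882 at 20 CPM. Between small and large members the count of 406 became 120, 125 and 1262 at those settings, and 2900 at a 2% marker share. At that share, which leaves 11 members, the log2 ratio of small over large members changed sign for CTSK, BOLA-DMB, BOLA-DQB and MRC1 (1.51 each), UBE2S (2.51), FABP5 (0.93), TREM2 (0.41) and S100A12 (−1.81), and that of blood over marrow for HERC5 (−0.079) and PCNA (−0.33). The cause was not tested, though fewer barcodes or other minimums enter by construction. The other settings, among them TMM factors, equal weights, thinning to 1000 UMIs and free RNA subtraction, kept each count within 1.5 times; their splits by direction with TMM stand with the comparisons. Leaving out the 15 largest members, the barcodes with cell cycle UMIs in both cultures, or barcodes found in both libraries gave 358, 353 and 354 genes between blood and marrow, TOP2A alone turning (−0.57, without cell cycle barcodes); these 3 were chosen after seeing the data. Thinned to 1000 UMIs, TREM2 (0.97), SLC16A3 (0.94), LDHA (0.95), TREM1 (0.84), VCAN (0.92), CEBPD (0.96), PYCARD (0.94) and NR1H3 (−0.98) were under 2-fold between blood and marrow, as were CSF1R (0.99), SLC16A3 (0.98), LDHA (0.93) and PYCARD (0.90) with equal weights. Between small and large members equal weights put MCM3, PCNA, SMC2 (−0.80) and IFI6 under 2-fold. With 34 small members, genes there under about 10 UMIs have wide intervals. No paired analysis was possible because each tissue has 1 library and no test was made.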

Other observations

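Other gene lists were set between the blood and marrow macrophage-like barcodes in the same way. Of 15 transcription factors compared 4 were at least 2-fold higher in blood and 1 lower: CEBPD had 787 CPM in blood and 341 in marrow, JUNB 437 and 113, and the lower one, the sterol receptor NR1H3, 54.4 and 115. Of 8 innate sensors 2 were higher and 0 lower: the inflammasome gene NLRP3 had 141 and 50.4 CPM, and its adaptor PYCARD 577 and 286 CPM; PYCARD and CEBPD were under 2-fold with TMM scaling (log2 ratios 0.74 and 0.93). Of 14 Fc receptor and adaptor genes 2 were higher and 2 lower; TREM1, an activating receptor, had 136 and 44.1 CPM, a log2 ratio of 1.63 that was 0.84 after thinning to 1000 UMIs, and the inhibitory Fc receptor FCGR2B 25.4 and 98.9 CPM. Of 10 iron and haem genes 1 was higher and 2 lower, the biliverdin reductase BLVRA at 29.5 and 97.8 CPM. Of 17 actin and podosome genes 0 were higher and 1, VIM, lower.

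MEFV, the pyrin gene, had 66.3 CPM in blood and 0.18 in marrow, from 128 and 1 UMIs, 368-fold (64.9 to 14657) apart. Of the genes with an identifier alone, ENSBTAG00000048980 had 1456 CPM in blood, 24.0 in marrow and 8.76 in blood stroma, 60.8-fold (51.0 to 72.9) apart between the macrophage-like barcodes. Both were chosen after their values were seen.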
